A study of Mus musculus with 10 samples.

Results

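The step from stage 1 to stage 2 of invariant natural killer T (iNKT) cell development was compared in the thymus of wild-type (WT) C57BL/6 mice at 6 weeks of age. Both groups were sorted as cells that bind the CD1d tetramer (Tet+) and lack CD24 and NK1.1. Stage 1 cells also lacked CD44 (2 arrays) and stage 2 cells carried it (3 arrays), so these were 5 of the 10 arrays of the study. The other 5 held the same 2 stages from mice without Id3 (Id3KO), an inhibitor of E protein transcription factors, on the same strain and at the same age. The labels call the arrays biological replicates and do not say whether an array pooled mice. All probe sets with a log2 intensity above the median of the whole table, 5.78, on at least 2 of the 10 arrays were compared, which left 25061 of 45037, covering 11951 genes. That median is called the background level here, and a group is called below background where its mean log2 intensity lies under it.

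iNKT cells are T cells whose semi-invariant receptor recognises lipids held by CD1d. After selection by double-positive thymocytes they expand and acquire CD44, and a mature pool forms that is usually divided into NKT1 cells (T-bet, interferon gamma), NKT2 cells (GATA3, interleukin 4) and NKT17 cells (RORgammat, interleukin 17). NK1.1 marks most mature NKT1 cells, so a sort that leaves out NK1.1 removes them, while NKT2 and NKT17 cells can remain among CD44-positive cells.

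Of all transcripts, 3 passed limma's test as higher in stage 2 and 1 as lower. They were Ccr6, the receptor for the chemokine CCL20 that marks interleukin 17-producing lymphocytes, Ahr, the ligand-activated aryl hydrocarbon receptor, Clnk, an adaptor of the SLP-76 family in immune receptor signalling, and Ccr9, the receptor for the thymic and gut chemokine CCL25. The promoter windows of Ccr6, Clnk and Ccr9 are printed because these genes carry the result, from RefSeq on GRCm38.p6, 250 bases before to 50 after the start site, 5′ to 3′. Capitals mark matches on either strand to 6 motifs: the E-boxes CAGCTG and CAGGTG, the ROR element AGGTCA, the T-box AGGTGT, the GATA core AGATAA and the KLF core CACCC. The motifs CAGGTG and AGGTGT can share the letters AGGTG.
Ccr6 promoter, first window (chr17:8235793-8236092, plus strand): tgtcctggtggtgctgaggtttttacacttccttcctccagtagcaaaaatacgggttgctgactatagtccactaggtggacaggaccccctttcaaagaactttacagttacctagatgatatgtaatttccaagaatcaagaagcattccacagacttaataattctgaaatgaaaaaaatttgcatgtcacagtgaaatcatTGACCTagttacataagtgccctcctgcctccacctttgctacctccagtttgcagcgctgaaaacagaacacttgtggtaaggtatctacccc
Ccr6 promoter, second window (chr17:8242276-8242575, plus strand): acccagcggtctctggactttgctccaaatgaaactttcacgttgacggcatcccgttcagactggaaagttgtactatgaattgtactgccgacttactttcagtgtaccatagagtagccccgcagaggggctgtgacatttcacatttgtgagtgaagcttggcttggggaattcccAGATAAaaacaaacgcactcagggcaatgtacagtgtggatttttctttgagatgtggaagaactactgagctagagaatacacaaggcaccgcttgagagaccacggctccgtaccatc
Clnk promoter (chr5:38876644-38876943, minus strand): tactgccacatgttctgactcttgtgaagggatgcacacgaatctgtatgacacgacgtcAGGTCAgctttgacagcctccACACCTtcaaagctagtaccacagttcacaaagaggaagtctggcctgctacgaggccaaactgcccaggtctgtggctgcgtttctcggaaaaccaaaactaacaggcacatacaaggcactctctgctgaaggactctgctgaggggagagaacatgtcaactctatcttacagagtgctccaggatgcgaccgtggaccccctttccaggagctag
Ccr9 promoter (chr9:123766961-123767260, plus strand): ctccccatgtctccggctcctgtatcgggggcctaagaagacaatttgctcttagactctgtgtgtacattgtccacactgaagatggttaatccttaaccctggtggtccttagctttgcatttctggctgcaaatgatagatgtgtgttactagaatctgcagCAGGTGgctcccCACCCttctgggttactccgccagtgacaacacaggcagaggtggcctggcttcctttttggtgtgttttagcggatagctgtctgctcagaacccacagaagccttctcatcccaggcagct

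The first Ccr6 window held an AGGTCA match 44 bases before the start site, on the opposite strand, and the second an AGATAA match. Clnk held AGGTCA and AGGTGT, and Ccr9 held CAGGTG and CACCC. Of all 32817 promoter windows in the RefSeq table, 16.3% held CAGCTG, 20.2% CAGGTG, 16.3% AGGTCA, 13.7% AGGTGT, 11.2% AGATAA and 57.5% CACCC. Each of these matches is thus found in many promoters, and it describes letters, not binding. Of the 24 genes named in this comparison, 19 had a window.

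Ccr6 rose from an intensity of 73.1 and 62.0 on the stage 1 arrays to 446, 589 and 867 on the stage 2 arrays. Every stage 2 array lay far above both stage 1 arrays. The fold was 9.07 (log2 difference 3.18 ± 0.23, SE, n = 3 against 2, limma adjusted p = 0.00358). Ahr stood at 99.1 and 84.1 in stage 1 and at 275, 215 and 239 in stage 2. It rose 2.65-fold (log2 1.41 ± 0.15, SE, limma adjusted p = 0.0484). Clnk was below background in stage 1, at 35.6 and 36.5, and above it in stage 2, at 80.2, 84.5 and 82.1. It rose at least 1.49-fold over the background level (limma adjusted p = 0.00335). Clnk passed the filter on low values only through the WT stage 2 arrays, since it was below background on all other arrays. With no filter its limma adjusted p was 0.00154. For a gene below that level on every array of a stage, folds here set the brighter stage against the background level and are lower bounds. In arrays of sorted pools, more cells of a type and more RNA per cell cannot be told apart.

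Ccr9 was the transcript that fell. Its brightest probe set read 2264 and 1811 in stage 1 and 911, 864 and 936 in stage 2, without overlap. The decrease was 2.24-fold (log2 -1.16 ± 0.11, SE, n = 3 against 2, limma adjusted p = 0.0178). Ccr9 had 5 probe sets above the filter. The next brightest differed by -1.08 (adjusted p = 0.0764) and the 3 dimmer ones by -0.60, -0.36 and -0.13 on the log2 scale. Those 3 read only 55.8 to 76.0 in stage 1 and had stage 2 means below background, which limits the decrease they can show. The mean over all 5 probe sets, which includes them, differed by -0.67.

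These calls were few. Of the 25061 probe sets, 0.012% were called higher and 0.00399% lower, while 2019 had an unadjusted p under 0.05. Arrays of the stages did not overlap for 1215 genes that were higher in stage 2 (10.2% of genes) and 1935 that were lower (16.2%). With 2 arrays against 3 there are only 10 splits, so an exact permutation test of 1 gene cannot reach 0.05. The limma test therefore rests on a spread shared over all 4 groups. Without the first WT stage 1 array the adjusted p of Ccr6 was 0.0722 and without the second 0.0825, and for Clnk it was 0.0722 and 0.0505. Ahr lost its call without any 1 WT array (adjusted p 0.0502 to 0.279) and without 3 of the Id3KO arrays (0.106 to 0.123). It also lost it with no filter on low values (0.0938) and with the arrays centred on their medians (0.0515). Ccr9 lost it without either stage 1 array (0.124 and 0.0505), without the second or the third WT stage 2 array (0.0502 and 0.0667) or without either Id3KO stage 1 array (0.0521).

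The sort, the identity of the cells and the arrays themselves were checked as follows. Cd44, the gene behind the gate, read 147 and 224 in stage 1 and 653, 797 and 858 in stage 2 (log2 2.07 ± 0.36, SE), but did not pass limma's test (adjusted p = 0.134). Cd24a, removed by the sort from both groups, stood at 103 and 44.7 against 41.0, 45.1 and 60.9, which overlap. The T cell receptor components Cd3d and Cd3g lay between 2822 and 3296 on all 5 arrays, and Zbtb16, which encodes the iNKT factor PLZF, between 889 and 1205. Array medians were 54.8 to 55.1. Correlations were 0.986 within stage 1, 0.977 to 0.989 within stage 2 and 0.976 to 0.986 between the stages. Of 7 measured markers of double-positive thymocytes, 6 were below background in both groups, Rag1, Rag2 and Ptcra among them. Xist and the Y-linked Eif2s3y were above background on every WT array.

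**Figure D1:**
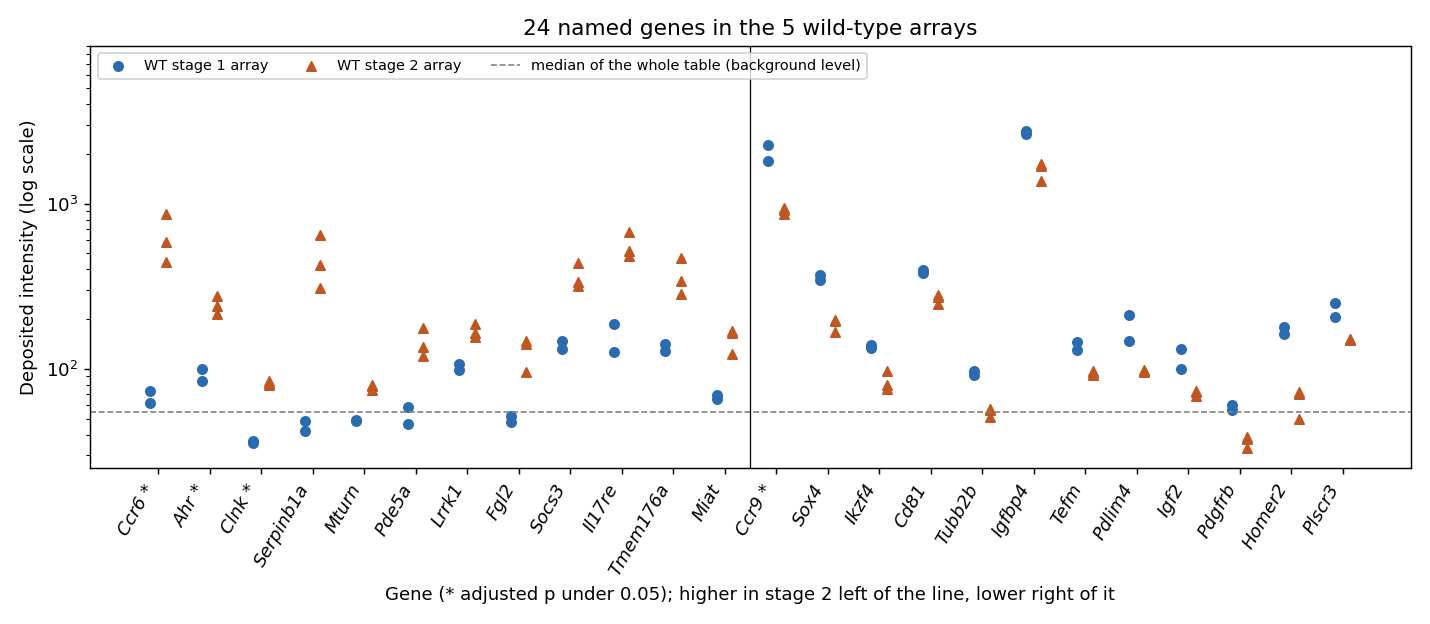
Deposited intensity (log scale) of the 24 named genes on each wild-type array, with circles for stage 1 and triangles for stage 2. For all 24 genes the 3 stage 2 arrays lay on 1 side of both stage 1 arrays, which is part of how they were chosen, and an asterisk marks the 4 with an adjusted p under 0.05.

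The other genes with the smallest unadjusted p are given as values, since none of them passed. Serpinb1a, an inhibitor of serine proteases, read 42.2 and 48.2 in stage 1, below background, and 307, 423 and 644 in stage 2 (at least 7.94-fold over the background level, limma adjusted p = 0.0515). Its dimmer probe set read 40.0 and 36.7 against 67.4, 84.6 and 84.0. Il17re, a receptor chain for interleukin 17C, read 187 and 126 against 483, 517 and 677 (log2 1.85, adjusted p = 0.0850). Its other probe sets differed by 0.35 and, from a stage 1 mean below background, by 0.59. Socs3, an inhibitor of cytokine signalling through STAT3, read 146 and 131 against 337, 317 and 437 (log2 1.38, adjusted p = 0.0849). The dimmer probe sets of Socs3 differed by 0.93 and 0.31. In the brightest probe sets of Il17re and Socs3 both stage 1 values lay well below the lowest stage 2 value. Tmem176a, a membrane protein, read 141 and 129 against 283, 339 and 471 (log2 1.40, adjusted p = 0.0856). Pde5a, the phosphodiesterase that degrades cyclic GMP, differed by 1.45 on the log2 scale from a stage 1 mean below background, the long noncoding RNA Miat by 1.17 and the kinase Lrrk1 by 0.72. Dimmer probe sets of Pde5a, below background on both stage 1 arrays, differed by 1.03 and 0.69 as measured. Those of Miat and Lrrk1 differed by 0.11 and 0.33. Fgl2, a secreted fibrinogen-like protein, and Mturn were below background on both stage 1 arrays, and their stage 2 means were at least 2.28-fold and 1.41-fold higher. Fgl2 and Pde5a passed the filter on low values only through their WT stage 2 arrays. Of the other arrays, Fgl2 was above background on none and Pde5a only on the second WT stage 1 array. The adjusted p of these 5 genes ran from 0.0515 to 0.0856.

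On the lower side, Sox4, an HMG-box factor of early lymphocytes, read 371 and 346 in stage 1 and 197, 168 and 195 in stage 2 (log2 -0.94 ± 0.14, SE, limma adjusted p = 0.0959). Homer2, a scaffold protein, read 180 and 163 against 49.3, 70.3 and 71.9 (log2 -1.44, adjusted p = 0.133). Igfbp4, a binding protein of insulin-like growth factors that is abundant in naive T cells, read 2734 and 2622 against 1738, 1693 and 1365 (log2 -0.75, adjusted p = 0.128). In the brightest probe set of each gene, all 3 were thus lower in every stage 2 array without reaching the threshold. Dimmer probe sets of Homer2, with stage 2 means below background, differed by -0.83 and -0.14. Those of Sox4 ran from -0.67 to -0.01 and those of Igfbp4 from -0.86 to 0.05. Ikzf4, the Ikaros family factor Eos, differed by -0.71, the LIM protein Pdlim4 by -0.87, the growth factor Igf2 by -0.68, the scramblase Plscr3 by -0.61, the tetraspanin Cd81 by -0.54 and the mitochondrial elongation factor Tefm by -0.54. Dimmer probe sets differed by -0.50 for Ikzf4 and by -0.10 for Plscr3. Tubb2b, a beta tubulin (-0.78 as measured), had a stage 2 mean just below the background level. Pdgfrb, a receptor for platelet-derived growth factor, was below background on all stage 2 arrays, and its stage 1 mean lay at least 1.05-fold higher. Pdgfrb passed the filter on low values only through its WT stage 1 arrays. The adjusted p of these 8 genes ran from 0.0976 to 0.134. A probe set assigned to several genes, and so not named here, read 832 and 428 against 131, 110 and 117 (log2 -2.33 ± 0.39, SE, adjusted p = 0.133).

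Gene lists fitted to this tissue were then followed through the step, with 1 probe set per gene. The lists were chosen with earlier results of these data known, so their medians and counts describe these arrays and are no independent support. Of 33 lists, NKT17 genes had the highest median, and Ccr6, Ahr, Serpinb1a, Il17re and Tmem176a, named above, are among them. Of 23 listed, 18 passed the filter on low values, and their median log2 difference was 1.09, against -0.02 over all 11951 genes. Ccr6 and Ahr rose, 0 fell and 16 did not pass limma's test. In 15 of the 18 every stage 2 array lay above both stage 1 arrays, which held for 10.2% of all genes. In 2 every stage 2 array lay below (16.2% of all genes). Il1r1, the interleukin 1 receptor, read 108 and 77.3 against 214, 203 and 367 (log2 1.46, adjusted p = 0.137). Pxdc1 read 110 and 73.9 against 167, 252 and 435, and Sdc1, which encodes syndecan 1 on NKT17 cells, 191 and 74.1 against 354, 298 and 498. The stage 1 arrays differed from each other in these genes, with the first above the second. The dimmer probe sets of Sdc1 differed by 1.34, 0.91 and -0.01 (log2). Blk, a Src family kinase, read 233 and 215 against 384, 383 and 552.

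The list was not of 1 direction. Sox13, a factor of interleukin 17-producing gamma delta T cells, read 202 and 213 in stage 1 and 140, 128 and 138 in stage 2 (log2 -0.62, adjusted p = 0.134). Rora, a retinoid-related orphan receptor, read 192 and 186 against 154, 138 and 174 (log2 -0.29), and its 6 probe sets ran from -0.33 to 0.10. Maf, a factor needed for NKT17 cells, differed by 0.18. Within stage 2 the NKT17 list was highest on the third array. Its median level relative to the mean of the 5 WT arrays was -0.41 and -0.71 on the stage 1 arrays and 0.15, 0.24 and 0.68 on the stage 2 arrays (log2).

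**Figure D2:**
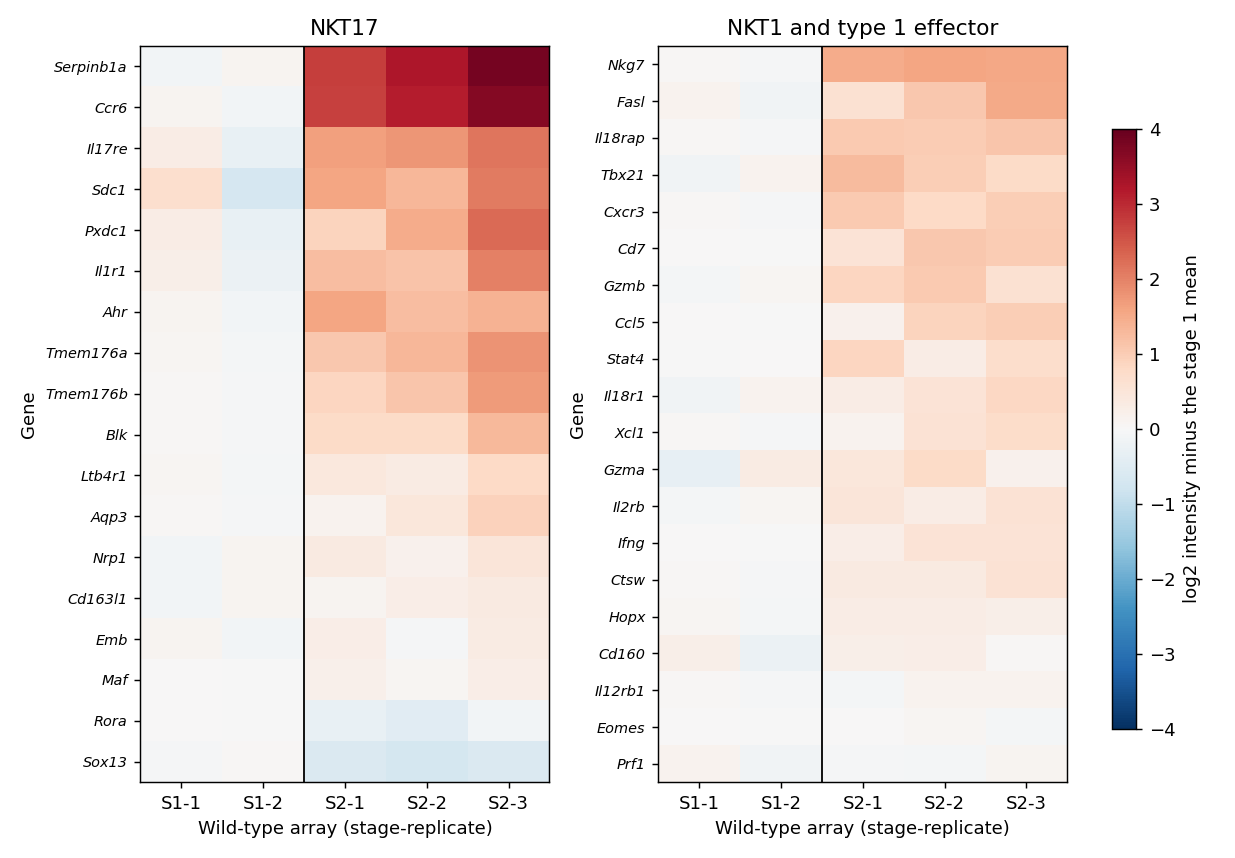
Log2 intensity of each NKT17 gene (left) and each NKT1 and type 1 effector gene (right) on the 5 wild-type arrays, minus the gene's mean on the 2 stage 1 arrays, with columns named by stage and replicate. Serpinb1a, whose stage 1 level is below background, and Ccr6 show the darkest red, and Rora and Sox13 are the genes in blue on all stage 2 arrays.

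Genes of NKT1 and type 1 effector cells had the next highest median after the sort markers, in cells sorted without NK1.1. All 21 listed genes had a probe set and 20 passed the filter. Their median was 0.53 (log2). In the higher direction 15 did not overlap (10.2% of all genes) and in the lower 0 (16.2%). None passed limma's test, while 12 were higher with an unadjusted p under 0.05 (3.16% of all genes). Tbx21, which encodes T-bet, read 306 and 371 in stage 1 and 809.5, 660 and 567 in stage 2 (log2 0.99 ± 0.21, SE, adjusted p = 0.234). Cxcr3, a chemokine receptor under T-bet control, read 737 and 684 against 1452, 1236 and 1411. Nkg7, a granule membrane protein, read 210 and 199 against 575, 608 and 595, and its adjusted p was 0.510. The Id3KO stage 1 arrays, whose spread enters the shared estimate, read 326 and 98.2. A fit of the 5 WT arrays alone called Nkg7 and Myo1f, a myosin that read 107 and 99.7 against 274, 281 and 273, and none of Ccr6, Ahr, Clnk and Ccr9 (adjusted p 0.0553 to 0.191).

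The interleukin 18 receptor subunit Il18rap read 175 and 166 against 349, 344 and 367 (log2 1.05, adjusted p = 0.139). Gzmb, which encodes granzyme B, read 67.3 and 76.2 against 131, 148 and 110 (log2 0.85, adjusted p = 0.109). Fasl, the ligand of the death receptor Fas, read 64.4 and 52.9 against 88.2, 122 and 165. All these genes were separate between the stages. Ifng stood near background, at 54.3 and 53.4 against 65.3, 77.9 and 78.3. Eomes, a T-box factor of natural killer cells, was below background in both stages, and Prf1, which encodes perforin, differed by -0.01. Gzma overlapped between the stages, at 86.4 and 136 against 148, 183 and 123.

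A list of natural killer cell receptors, most of them of the killer cell lectin family, gave a median of 0.34 over 9 of 21 listed genes. Of these, 6 did not overlap in the higher direction (10.2% of all genes). None passed limma's test, and 3 were higher with an unadjusted p under 0.05 (3.16% of all genes). Klrd1, which encodes CD94, read 142 and 106 against 292, 476 and 328 (log2 1.54 ± 0.25, SE, adjusted p = 0.128). Klrb1f read 43.8 and 55.8 in stage 1, near or below background, and 89.7, 81.6 and 98.0 in stage 2. The probe set for the gene of NK1.1 itself is shared with other genes and was not used. The summed intensity of 7 measured markers of mature NK and NK1.1-positive iNKT cells was 382 to 437 in stage 1 and 628 to 798 in stage 2, with Ncr1, Eomes and Klra8 below background in both. Klrd1 made up most of that difference, and the other 6 markers summed to 276 and 296 against 299.8 to 336. Of 8 gamma delta T cell markers 3 were measured, Sox13, Blk and Cd163l1, which also stand on the NKT17 list. Cd163l1 was the brightest, at 1391 and 1634 against 1642, 1826 and 1922. Blk lay higher and Sox13 lower on all stage 2 arrays, so the markers did not share a direction, and their sum was 1825 to 2062 against 2166 to 2612. What part cells of either kind had in these differences was not tested.

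NKT2 genes had members on both sides. The median over 13 of 16 listed genes was 0.01 (log2; -0.12 without the second WT stage 1 array and 0.05 without the second WT stage 2 array), with 3 not overlapping in the higher direction and 4 in the lower. None passed limma's test, with 2 higher and 3 lower at an unadjusted p under 0.05. Over all genes, 10.2% were higher and 16.2% lower without overlap, and 3.16% and 4.99% had such a p. Il4, the defining cytokine, read 987 and 742 against 824, 880 and 842, which overlap. Il13 read 310 and 235 against 159, 175 and 162 (log2 -0.71 ± 0.13, SE, adjusted p = 0.153). Gata3, the factor of type 2 cells, read 416 and 355 against 267, 299 and 301, and Plac8 3149 and 3074 against 2511, 2270 and 2235. These 3 were lower on all stage 2 arrays. Il17rb, a receptor for interleukin 25, read 1622 and 1501 against 1905, 1785 and 1937 (log2 0.26), in the other direction.

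**Figure D3:**
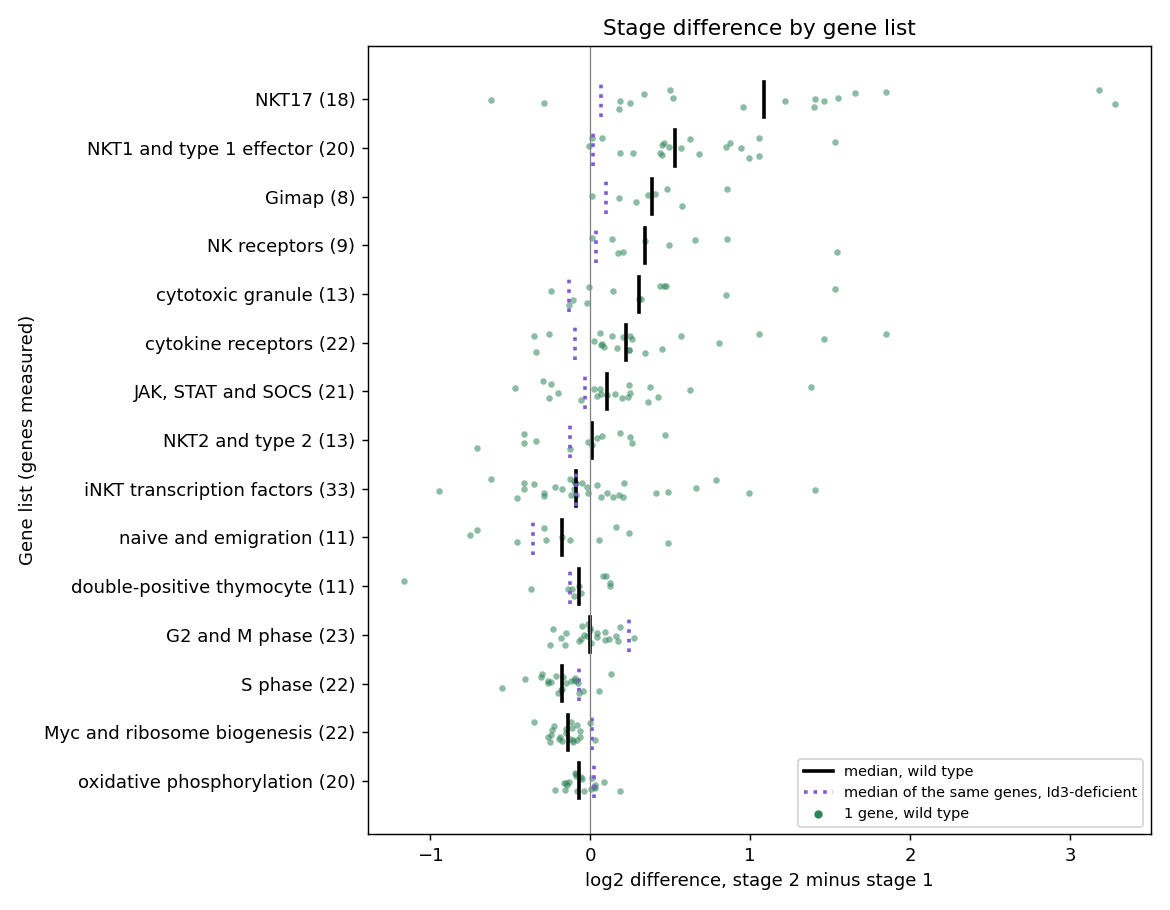
Log2 difference between stage 2 and stage 1 for the genes of 15 lists, with each point a gene in wild-type cells, the black line the wild-type median and the dotted line the median of the same genes in Id3-deficient cells. The NKT17 median stands at 1.09 and the NKT1 median at 0.53, while the dotted lines of both lie at 0.06 and 0.02.

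Of 36 transcription factors of iNKT and T cell development with a probe set, 33 passed the filter. Ahr rose and the other 32 did not pass limma's test. The median was -0.09 (-0.03 without the second WT stage 2 array and -0.04 without the second WT stage 1 array), with 6 genes not overlapping in the higher and 10 in the lower direction. Over all genes, 10.2% did not overlap in the higher and 16.2% in the lower direction. Besides Tbx21, Runx3, a partner of T-bet in type 1 cells, read 254 and 274 against 394, 437 and 425 (log2 0.66, adjusted p = 0.204). Ikzf3, the factor Aiolos, read 353 and 389 against 581, 687 and 656 (log2 0.79). Bhlhe40, a repressor of interleukin 10 in T cells, read 59.98 and 67.5 against 77.4, 87.4 and 89.6. In the lower direction stood Sox4, Sox13, Gata3, Lef1, a partner of beta-catenin (log2 -0.45), Lmo4, a LIM-only cofactor (-0.41), and Zbtb16 itself, at 1205 and 1159 against 889, 996 and 895 (log2 -0.35 ± 0.11, SE, adjusted p = 0.489). Id3 read 1289 and 1282 against 1065, 831 and 818 (log2 -0.52 ± 0.14, SE, adjusted p = 0.385). Id2, the related inhibitor, overlapped between the stages (log2 0.13).

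Of 17 homing receptors above the filter, out of 18 with a probe set, Ccr6 rose and Ccr9 fell. Gpr183, a receptor for oxysterols, read 101 and 102 against 164, 170 and 191 (log2 0.78, adjusted p = 0.134), and Ccr7, a receptor of naive cells for lymph node chemokines, 270 and 340 against 162, 197 and 200 (log2 -0.71, adjusted p = 0.445). Both were separate between the stages. Cxcr4, Ccr2 and S1pr1, which guides cells out of the thymus, differed by 0.03, 0.06 and 0.06. Genes of naive cells and emigration had a median of -0.17 over 11 (-0.04 without the second WT stage 1 array and -0.28 without the second WT stage 2 array). In the higher direction 0 did not overlap (10.2% of all genes) and in the lower 5 (16.2%), Igfbp4, Lef1 and Ccr7 among them.

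For cytokine receptors the median was 0.23 over the 22 genes above the filter, out of 28 with a probe set. Of the 22, 11 did not overlap in the higher direction (10.2% of all genes) and 2 in the lower (16.2%). None passed limma's test, and 7 were higher with an unadjusted p under 0.05 (3.16% of all genes). Ifngr1, a chain of the interferon gamma receptor, read 135 and 188 against 267, 269 and 297 (log2 0.80, adjusted p = 0.197). Il18r1, which pairs with Il18rap, read 1118 and 1373 against 1536, 1818 and 2208. Il7r, which supports survival, overlapped between the stages. In the JAK, STAT and SOCS list Stat4, which signals for interleukin 12, was below background on both stage 1 arrays and read 79.9, 54.3 and 71.2 in stage 2. Socs1 (0.06) and Socs2 (0.07) overlapped between the stages.

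Cell cycle genes set the arrays apart within a stage. The G2 and M phase list had a median of 0.00 (log2) between stages over 23 genes (-0.33 to 0.32 with 1 WT array left out), and 0 genes without overlap in either direction. Its level relative to the mean of the WT arrays was -0.33 and 0.33 on the stage 1 arrays and 0.31, 0.34 and -0.65 on the stage 2 arrays. The S phase list had a median of -0.17 over 22 genes (-0.06 without the third WT stage 2 array), of which 7 were lower without overlap, among them the clamp Pcna, at 2226 and 2373 against 1853, 2113 and 1795. The list of Myc targets and ribosome biogenesis stood at -0.14 (-0.09 without the second WT stage 1 array) with 8 of 22 lower without overlap, and oxidative phosphorylation at -0.07 (-0.03 without the third WT stage 2 array) with 6 of 20. No member of these lists passed limma's test, and 16.2% of all genes were lower without overlap. Unadjusted p was under 0.05 in 0 of the G2 and M phase genes, 2 of the S phase genes, 1 of the Myc list and 0 of the oxidative phosphorylation genes, against 4.99% of all genes in the lower direction.

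A run of neighbouring genes lay higher on the stage 2 arrays. The Gimap genes, which encode GTPases of lymphocyte survival, lie side by side on chromosome 6 and are followed by Tmem176b and Tmem176a. Of these 10 adjacent protein-coding genes 9 were higher on every stage 2 array than on both stage 1 arrays, and the exception was Gimap9 (log2 0.01). None of the 10 passed limma's test, and 5 of the 8 Gimap genes had an unadjusted p under 0.05. Over all genes, 10.2% were higher without overlap and 3.16% were higher with such a p. Gimap8 read 588 and 430 against 993, 781 and 978 (log2 0.86 ± 0.16, SE, adjusted p = 0.156), Gimap3 108 and 118 against 158, 160 and 189 (log2 0.58), and Tmem176b 204 and 190 against 356, 422 and 638 (log2 1.22 ± 0.27, SE, adjusted p = 0.242). Gimap5 stood at 0.48, Gimap4 at 0.41, Gimap6 at 0.36, Gimap7 at 0.29 and Gimap1 at 0.18. Of the 10 genes on each side, 8 before and 5 after them were above the filter. None of these was higher without overlap, and Zfp467, Igf2bp3 and Ccdc126 were lower without overlap (16.2% of all genes). Gimap genes are related in sequence, so a probe set of 1 may bind transcripts of another. This window was chosen after the values of its members were seen.

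**Figure D4:**
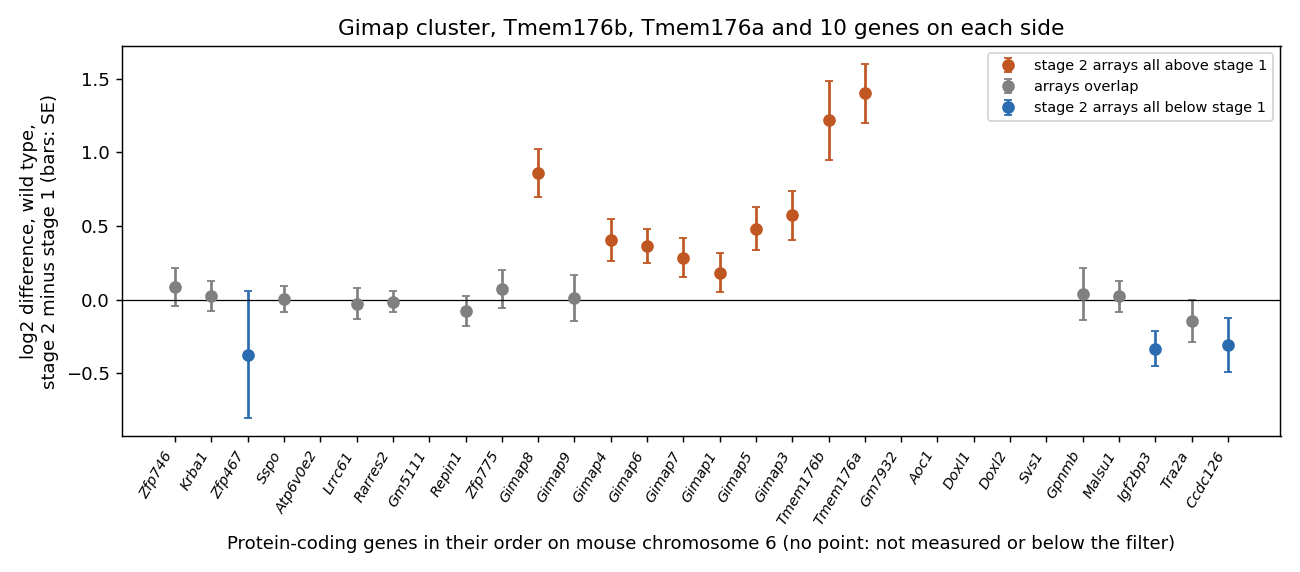
Log2 difference between the wild-type stages, with its standard error, for protein-coding genes in their order on chromosome 6. Orange points, with every stage 2 array above both stage 1 arrays, run from Gimap8 at 0.86 to Tmem176a at 1.40 with Gimap9 as the gap, and no gene beyond them on either side is orange.

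The same step was then read in the Id3KO arrays. Its difference uses no WT array, but the spread behind both tests was estimated over all 10 arrays. There 0 of 25061 probe sets (0%) passed limma's test, the smallest adjusted p was 0.811, and 1131 had an unadjusted p under 0.05. Cd44 differed between the Id3KO stages by 1.25 ± 0.36 (log2, SE) without overlap of arrays. Ccr6 stood at 58.0 and 58.8 in Id3KO stage 1 and at 58.5, 63.0 and 54.6 in stage 2, close to background throughout (log2 0.00 ± 0.23, SE). Ahr read 48.2 and 45.0 against 50.5, 55.1 and 40.6, and Clnk 36.1 and 40.5 against 40.6, 39.2 and 38.3. Both were below background in both Id3KO stages. Ccr9 read 2560 and 2837 against 2759, 2536 and 2637, so that Id3KO cells of both stages lay above WT stage 1.

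The test of the difference between the 2 steps passed for 0 probe sets (0%), with 1772 at an unadjusted p under 0.05. The smallest adjusted p was 0.0644, shared by Ccr6 (WT minus Id3KO 3.18 ± 0.33, log2, SE) and Clnk. It was 0.261 for Ccr9 (-1.14 ± 0.15) and 0.377 for Ahr. No size is given for Clnk and Ahr, whose Id3KO levels are below background. Since these genes were chosen on the WT arrays, the difference is not independent of the choice, and a p above the threshold does not show that the steps were alike. Of the 12 genes named as higher, 10 had the same sign in Id3KO cells and 1, Lrrk1, did not overlap (10.5% of all genes were higher without overlap there). Over all genes the median Id3KO difference was -0.00055 (log2), so either sign was about as common. Of the 10, Ahr, Clnk, Pde5a and Fgl2 were below background in both Id3KO stages, and Ccr6 stood at 0.00 ± 0.23 (SE), so their signs say little. Socs3 had the opposite sign, at -0.36. Of the 12 named as lower, 9 had the same sign and 7 did not overlap (9.51% of all genes). Sox4 was nearest to its WT value, at -0.83 against -0.94, with Id3KO arrays at 313 and 307 against 187, 143 and 199.

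**Figure D5:**
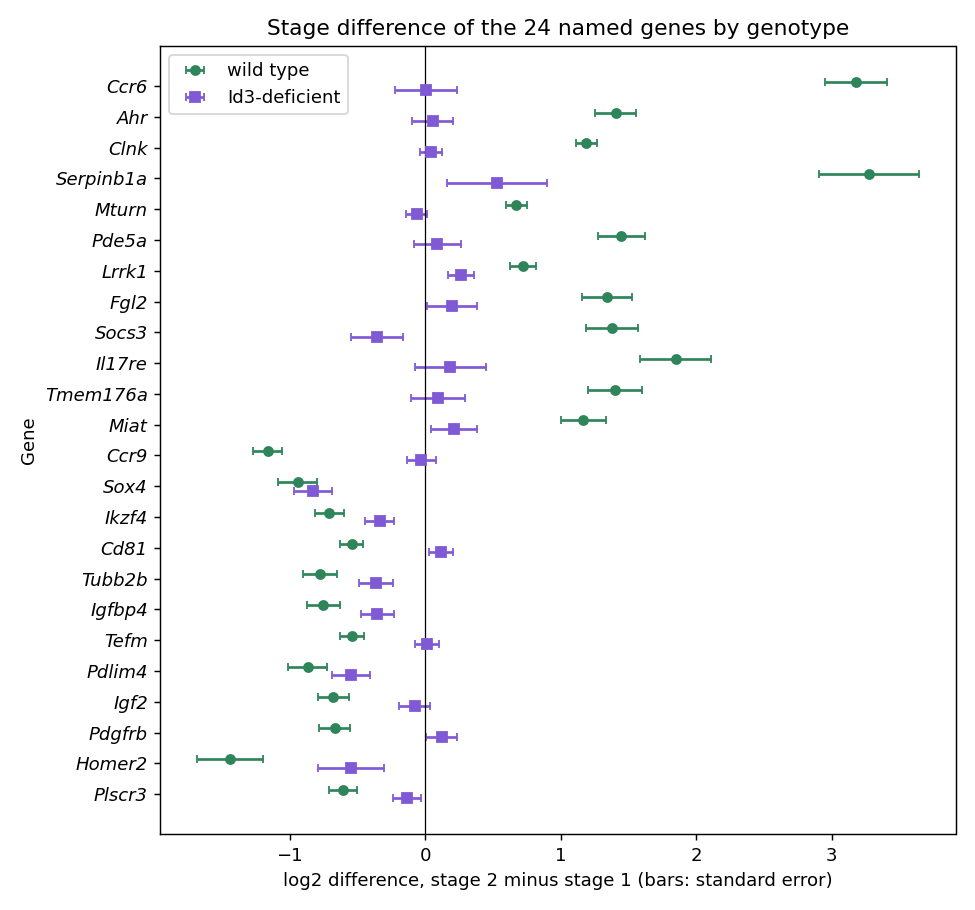
Log2 difference between stage 2 and stage 1, with its standard error, for the 24 named genes in wild-type (circles) and Id3-deficient cells (squares). The WT value of Ccr6 is 3.18 and its Id3-deficient value 0.00, whereas the values of Sox4 are -0.94 and -0.83. Differences from levels below background are drawn as measured.

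The lists showed the same values side by side. The NKT17 median was 1.09 in WT and 0.06 in Id3KO cells, with 15 and 1 genes higher without overlap. On the Id3KO arrays the level of this list was -1.45 to -0.86 (log2, relative to the mean of the WT arrays), below every WT array. Ahr was below background in both Id3KO stages, and Ccr6 and Pxdc1 lay near it, so the Id3KO median includes members with little signal. The NKT1 median was 0.53 and 0.02, with 15 and 3 of 20 genes higher without overlap, against 10.2% and 10.5% of all genes. For genes of naive cells the median was -0.17 in WT and -0.36 in Id3KO cells. In WT 5 genes were lower without overlap and in Id3KO cells 6, against 16.2% and 9.51% of all genes. S100a4, a calcium-binding protein, read 947 and 731 against 1259, 1556 and 1620 in WT and 334 and 247 against 378, 594 and 620 in Id3KO cells, a log2 difference of 0.82 and 0.85. Tnfsf14, the cytokine LIGHT, differed by 0.58 and 0.59. Over all 11951 genes the correlation of the WT and Id3KO steps was 0.00814, as a description of these arrays, with genes that are not independent of each other.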

How the data were processed

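Total RNA from sorted thymic iNKT cells was hybridised to 10 Affymetrix arrays, grouped as the labels say. The deposited table holds 1 intensity per probe set and array, not on a log scale, and RMA was used by the authors, per the submitters' processing notes. The RMA version and the genome build are not given in the sources used here. Log2 of the intensities was taken here, and probe sets above the table median, 5.78, on at least 2 arrays were kept. Genes were named from a platform annotation, which gave 20942 kept probe sets 1 gene, 593 several and 3526 none. A gene with several probe sets is represented by its brightest on average.

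A model with 4 group means was fitted to all 10 arrays in limma 3.58.1 (R 4.3.3, 6 residual and 2.80 prior degrees of freedom), with two-sided moderated tests and Benjamini-Hochberg adjustment over the kept probe sets. An adjusted p under 0.05 is a call. The 3 contrasts were the WT step, the Id3KO step and their difference. The pipeline was checked on simulated data. Named genes are, in each direction, up to 12 called genes without overlap, filled by smallest unadjusted p without overlap. Gene models named by Gm, Rik, LOC or a number were left out, and members of the lists, the sort markers and Id3 could also be named. The members, lists and rules were chosen with earlier results of these data known. Promoter windows and gene order came from RefSeq, GRCm38.p6. Alternatives were other filters, normalizations and variance models, other arrays in the fit, the replicate number as a block, other probe set rules, a fold limit and each array left out.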

Additional observations from a re-analysis of the deposited data

How the results depend on the processing

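The 24 named genes kept their sign in 549 of 549 values over 23 alternatives, and 476 stayed on their side of the threshold. The count of signs was largely fixed in advance. These genes were chosen without overlap of the WT stages, so leaving out 1 WT array could not reverse a sign. Other filters, the intensity trend and leaving out an Id3KO array did not alter the WT difference. Probe sets called higher, 3 as reported, numbered 6 with a stricter filter at log2 6.5, 7 with the filter on WT arrays, 7 after further quantile normalization, 8 with an intensity trend and robust prior, 31 with array weights, 7 with 1 probe set per gene and 10 with the mean of all probe sets. It was 2 with arrays centred on their medians, where Ahr was lost, and 3 with no filter, where Ahr was also lost. Called lower, 1 as reported, became 11 with array weights and 0 with only the 5 WT arrays. The difference between genotypes, 0 as reported, gave 1 without a filter, with the stricter filter and with the trend, and 2 with array weights and with either rule for probe sets per gene. Stage 1 had a lone array when either was left out, assumed to vary like the other groups. Leaving out 1 array gave 0 to 9 higher, 0 to 2 lower and 0 to 1 for the difference. The 0 in both directions came without either WT stage 1 array, and the 9 without the first WT stage 2 array. The additive model of stage and genotype, which averages the step over genotypes, gave 0 in both directions. The replicate block gave 0 higher and 0 lower, with a smallest adjusted p of 0.0563 and 1752 probe sets at an unadjusted p under 0.05. Same-numbered arrays correlated at 0.0530 and 0.123 in their deviations, and the labels name no pairing, so they share only a number. The NKT17 median ranged from 0.48, in the additive model, to 1.22 and the NKT1 median from 0.34 to 0.65. The medians of the G2 and M phase and NKT2 lists changed sign under some alternatives. Precision is limited by the number of arrays and by signal near background.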
